A study of Mus musculus with 8 samples.

Results

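The genes described here encode the constitutive proteasome and its regulators. They were chosen by symbol, as every gene named Psm followed by a letter from a to g and a number, without the interferon-inducible subunits Psmb8, Psmb9 and Psmb10. Of the 22520 genes in the expression table, 45 met this rule and 43 were expressed highly enough to be tested. RNA was sequenced from 8 libraries of mouse cells, 4 named Wildtype and 4 named LRP1 KO, all from C57BL/6 mice at postnatal day 14. LRP1 is a large endocytic receptor that binds lipoproteins and many other ligands, and the comparison was designed to ask which transcripts differ when it is removed from endothelial cells. In the LRP1 KO mice, floxed Lrp1 alleles (LRP1 f/f) were recombined by Cdh5-CreER, a tamoxifen-inducible Cre driven by the promoter of the endothelial cadherin Cdh5. The Wildtype mice were littermates with the same floxed alleles and no Cre, so they do not control for the Cre itself. The labels give every library the same source, a mix of microvascular cells from heart, liver and lung, and the study's methods describe capture on beads with an antibody to PECAM-1. The study treats liver cells and heart and lung cells separately, and the labels do not say whether the organ makeup differed between libraries. Neither source says whether each library came from 1 animal, a pool or a separate preparation, so p-values measure only the spread between these libraries, which may be technical.

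The proteasome is the main protease for ubiquitin-tagged proteins in the cytosol and nucleus. Its 20S core is a barrel of alpha and beta rings, with the active sites on beta subunits inside. The 19S regulatory particle caps the barrel, and its base of ATPases unfolds the substrate while its lid removes the ubiquitin chain. Other activators (PA28 and PA200) can take the place of the 19S particle, and dedicated chaperones assemble each part. Cells exposed to interferon replace the constitutive catalytic subunits by the immunoproteasome subunits. Because subunits work in fixed ratios, their genes are commonly expressed together in most cell types, endothelial cells included.

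Levels are given as FPKM, in which fragment counts are divided by transcript length and by the size of the library, so that genes can be compared per length. The libraries had been brought to nearly the same distribution before deposit, with the highest value at 7793 FPKM in each. Lrp1 was 112.7, 140.4, 103.2 and 124.2 FPKM in the Wildtype libraries and 3.45, 5.20, 2.79 and 7.72 FPKM in the LRP1 KO libraries, a fall in the direction that their labels give (difference in log2(FPKM + 1) of -4.45, limma adjusted p = 8.89e-05). Markers of other cells moved with genotype. The summed level of 15 macrophage genes was 92.2 to 118 FPKM in Wildtype and 251 to 604 FPKM in LRP1 KO, with 10 of 12 tested genes called higher. The sum of 10 leukocyte genes was 9.40 to 16.5 and 50.9 to 105 FPKM, with 7 of 8 tested genes called higher. The sum of 9 mural cell genes was 670 to 836 and 1039 to 1627 FPKM, with 4 of 8 called higher. The sum of 16 endothelial genes was 171 to 186 FPKM in Wildtype and 177 to 622 FPKM in LRP1 KO, where the fourth library stood apart at 177 FPKM. All 14 tested endothelial genes had estimates above 0 and 1 was called (Eng, 0.94, limma adjusted p = 0.0279). Fibroblast genes summed to 2109 to 3629 FPKM over all libraries, above the endothelial sum in each, and 1 was called higher and 2 lower in LRP1 KO. Which cells of this mix lost Lrp1 was not tested. That holds also for the fourth LRP1 KO library, whose endothelial sum was within the Wildtype range. Cardiomyocyte genes summed to 83.6 to 153 FPKM, of which Tnnt2 alone made up 81.6 to 152 FPKM while the other 5 genes were each under 2 FPKM in every library. Hepatocyte genes summed to 0.592 to 1.63 FPKM in all libraries. Lung epithelial genes summed to 2.39 to 4.28 FPKM in Wildtype and 1.76 to 2.53 FPKM in LRP1 KO, and the 1 tested gene, Scgb1a1, was called lower (-0.85, limma adjusted p = 0.00770). No listed marker gene was at 0 in every library. In such bulk libraries, fewer cells of a type and less RNA per cell cannot be told apart. The part of cell makeup in the differences that follow was not tested.

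Proteasome transcripts differed little between LRP1 KO and Wildtype. A gene was called when limma gave it an adjusted p under 0.05 over all 11389 genes tested. Of the 43 tested proteasome genes 1 was called, the lid subunit Psmd14, which was higher in LRP1 KO, against 13.6% of all genes tested (6.27% called higher and 7.31% called lower). Without the fourth LRP1 KO library, 4 of 43 were called higher and 1 lower, and the share called over all genes rose to 26.5%, so calls gained in that fit stand beside that larger share. Leaving out any other library lowered the share over all genes to between 4.50% and 8.85%. Calls lost in those fits stand beside that smaller share. None was called with at least a 2-fold change, as were 1.62% of all genes. At an unadjusted p under 0.05 stood 6 proteasome genes, which is 14.0%, beside 33.7% of all genes (limma). The 4 values of one group lay wholly apart from the other's for 6 of 43 genes (14.0%), all 6 higher in LRP1 KO, while this held for 19.6% of all genes tested (8.84% higher and 10.7% lower). These were Psmd14, Psmb7, Psme3, Psma3, Psmc6 and Psmd1. The estimated differences in log2(FPKM + 1) ran from -0.20 to 0.26, with a median of 0.030 beside -0.0091 over all genes. Estimates were above 0 for 28 genes (65.1%, beside 48.1% of all genes) and below 0 for 15. Because these genes deviated together between libraries, such sign counts, here and by role, are not counts of independent genes. The median size of the difference, without regard to sign, was 0.063 for the proteasome genes and 0.14 for all genes.

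The small differences came with narrow errors. The median standard error was 0.058 for proteasome genes and 0.088 for all genes tested, and the median Wildtype level was 80.6 FPKM beside 11.7 FPKM. The coefficient of variation among Wildtype libraries had a median of 5.99% for proteasome genes and 9.52% for all genes. All 43 proteasome genes had a 95% interval inside -0.5 to 0.5 on the log2 scale, from a lowest bound of -0.42 to a highest bound of 0.45, while 73.8% of all genes did. In linear terms, the LRP1 KO mean was within 10% of the Wildtype mean for 36 of 43 genes.

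**Figure D1:**
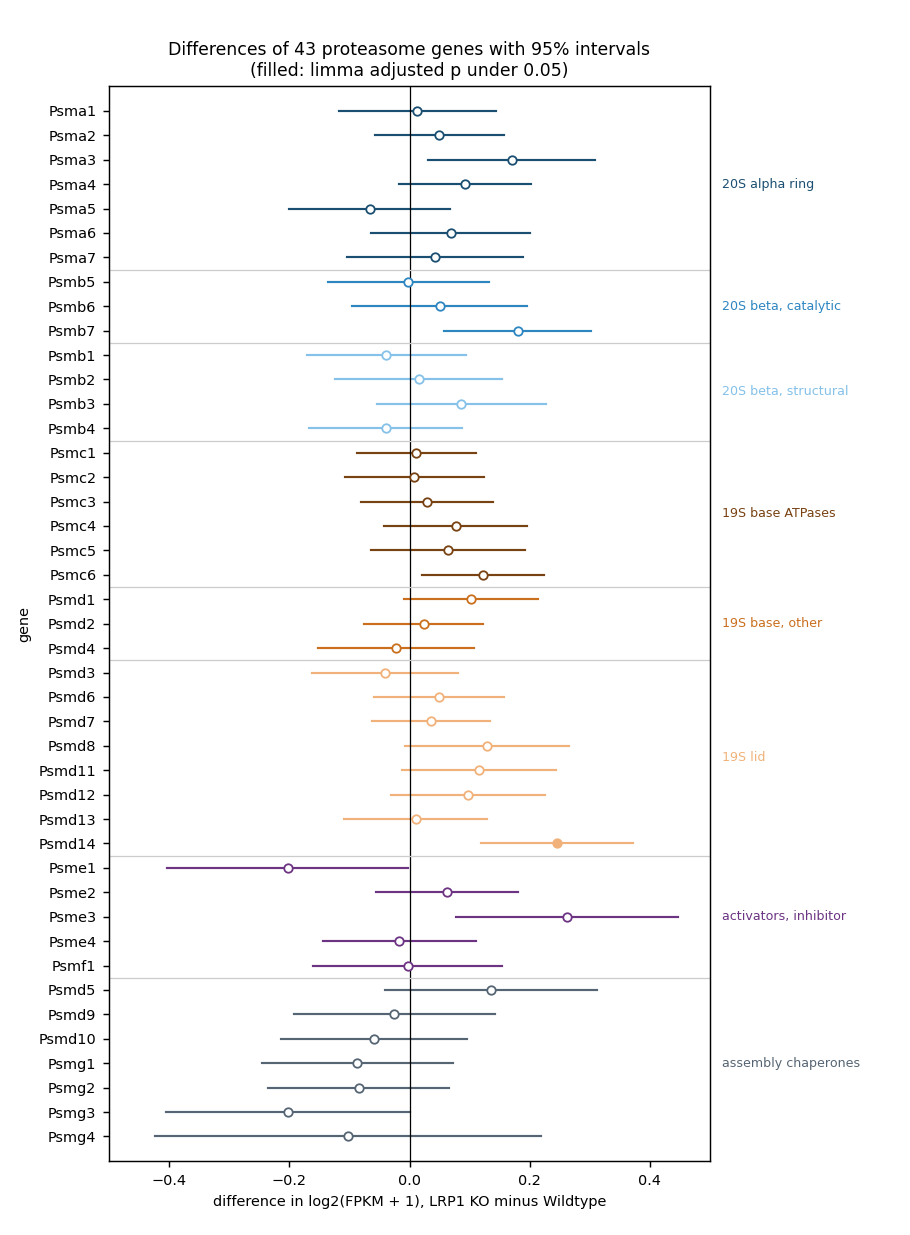
Each point is the estimated difference in log2(FPKM + 1), LRP1 KO minus Wildtype, of 1 of 43 tested proteasome genes (4 libraries a group), with its 95% interval as a line, grouped by role and coloured by it. The filled point, Psmd14 at 0.25, is the only one past the threshold, and no interval leaves the plotted range of -0.5 to 0.5.

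Levels differed by the role of the gene product. Wildtype means ran from 67.5 to 144 FPKM for the 7 tested alpha ring genes, from 90.8 to 121 FPKM for the 3 catalytic beta genes, and from 127 to 156 FPKM for the 4 structural beta genes. The 6 ATPase genes had means of 69.6 to 103 FPKM, the 3 other base genes 48.8 to 104 FPKM and the 8 lid genes 47.9 to 237 FPKM. The 5 genes of activators and the inhibitor stood at 15.5 to 80.6 FPKM. The 7 assembly chaperone genes with a Psm symbol stood lowest, at 11.8 to 27.9 FPKM, and did not overlap the subunits, since their highest value in any library was 33.9 FPKM and the lowest value of a 20S or 19S subunit gene was 44.7 FPKM. Pomp, an assembly chaperone without a Psm symbol, was not among them and stood at 115.5 FPKM in Wildtype. Psmd8, a small lid subunit that completes lid assembly, was the most abundant member at 237 ± 9.12 FPKM in Wildtype (SD, n = 4), 1.51 times the next gene, Psmb2 at 156 ± 11.1 FPKM. Psmg4 was the least abundant tested member at 11.8 ± 1.68 FPKM.

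**Figure D2:**
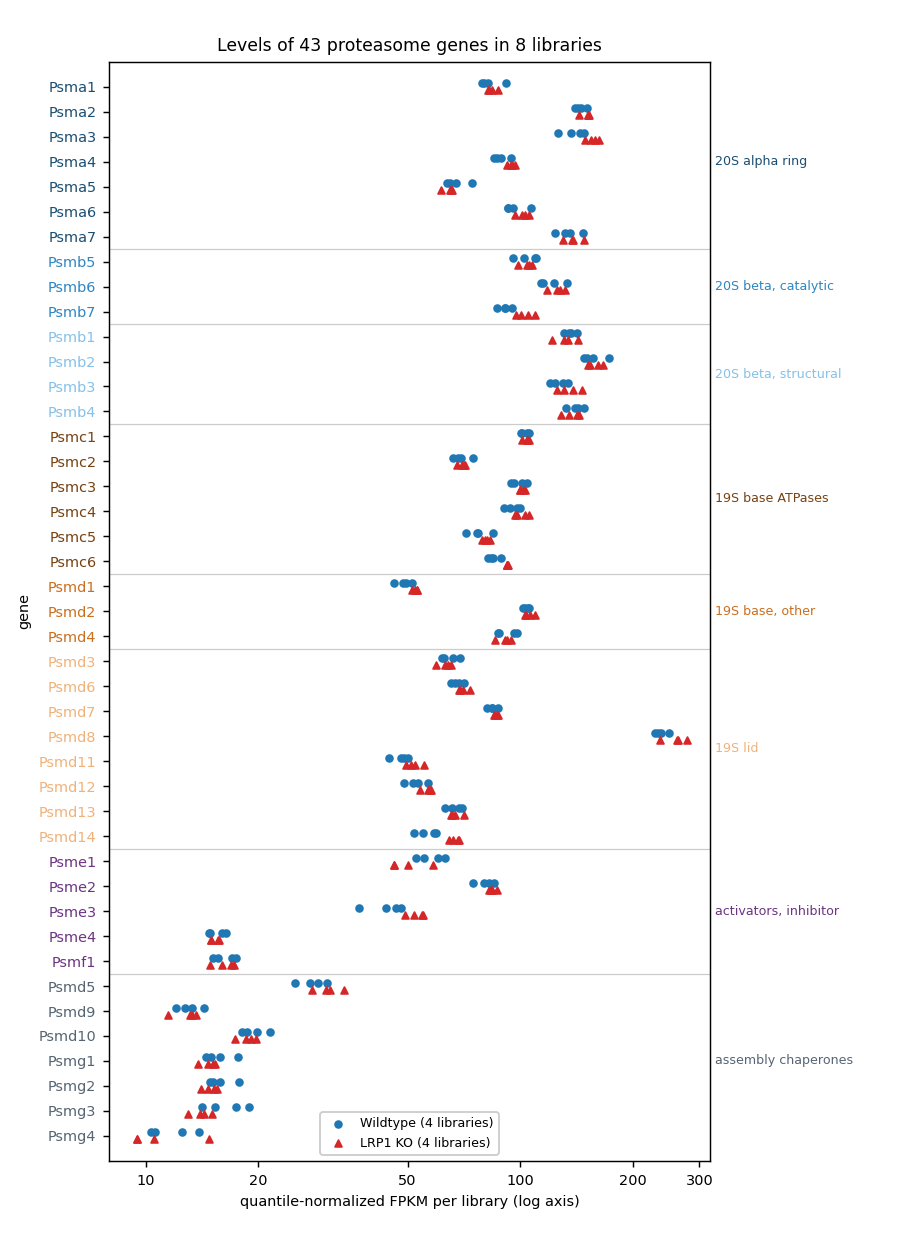
FPKM of 43 tested proteasome genes in each of 8 libraries on a log axis, with Wildtype libraries as circles and LRP1 KO libraries as triangles, grouped by role. The 7 assembly chaperone genes lie between 9.47 and 33.9 FPKM, left of every 20S and 19S subunit gene, and circles and triangles overlap for 37 of 43 genes.

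In the 20S core, 10 of 14 tested genes had an estimate above 0 and 4 below, with a median difference of 0.046 in log2(FPKM + 1) and none called. The alpha ring, which gates the barrel, had 6 estimates above 0 and 1 below, with a median of 0.049. That median was 0.085 without Wildtype library 1, and 0.034 with 2 estimates below 0 without Wildtype library 3. Psma3, an alpha ring subunit, was 148.1, 125.8, 144.2 and 136.1 FPKM in Wildtype and 162.3, 154.6, 157.7 and 148.6 FPKM in LRP1 KO. The groups did not overlap, though the closest libraries were 148.1 and 148.6 FPKM, and the difference of 0.17 ± 0.062 (SE) had an adjusted p of 0.0922 (limma). Psma2 was 150.6, 145.3, 139.9 and 142.0 FPKM in Wildtype and 151.4, 152.2, 143.0 and 151.4 FPKM in LRP1 KO (difference 0.049, limma adjusted p = 0.493). Psma5 was 74.4, 63.7, 67.2 and 64.7 FPKM in Wildtype and 64.9, 65.4, 61.5 and 65.6 FPKM in LRP1 KO (difference -0.066, limma adjusted p = 0.461). In both of these alpha ring genes the third LRP1 KO library was low and the others of that group were close together.

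The catalytic subunits carry the 3 kinds of peptidase activity. Psmb7, the constitutive trypsin-like subunit, was 94.9, 90.9, 86.4 and 90.8 FPKM in Wildtype and 109.6, 104.5, 100.6 and 97.3 FPKM in LRP1 KO. Every LRP1 KO library was above every Wildtype library. Its mean was 90.8 ± 3.48 FPKM in Wildtype and 103.0 ± 5.28 FPKM in LRP1 KO (SD, n = 4), a difference in log2(FPKM + 1) of 0.18 ± 0.055 (SE) that did not pass over all genes (limma adjusted p = 0.0562). Over all alternatives the estimate ran from 0.15 to 0.21 and the limma adjusted p from 0.0254, without the fourth LRP1 KO library, to 0.160, and it also passed with each library rescaled by its median ratio to the average library (limma adjusted p = 0.0413). An antisense neighbour, Nek6, overlapped 28.1% of the Psmb7 transcript, and without a stated use of strand in the counting, reads of such partners cannot be told apart. Psmb5, the chymotrypsin-like subunit and the main target of proteasome inhibitors, was 109.2, 110.0, 95.3 and 102.1 FPKM in Wildtype and 107.5, 105.2, 98.6 and 104.2 FPKM in LRP1 KO. Psmb5 gave a difference of -0.0023 with a 95% interval of -0.14 to 0.13 (limma adjusted p = 0.983), and its values overlapped throughout. Psmb6, the caspase-like subunit, was 133.5, 123.2, 113.3 and 115.1 FPKM in Wildtype and 131.3, 127.9, 117.7 and 125.0 FPKM in LRP1 KO. Psmb6 also overlapped, with a difference of 0.050 and an interval of -0.095 to 0.20 (limma adjusted p = 0.617). The 4 structural beta genes Psmb1, Psmb2, Psmb3 and Psmb4 had 2 estimates above 0 and 2 below, from -0.040 to 0.086.

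The immunoproteasome counterparts were far less abundant in these cells. Psmb8, which takes the place of Psmb5, was 7.62, 7.80, 5.69 and 5.12 FPKM in Wildtype and 8.81, 9.61, 9.999 and 13.9 FPKM in LRP1 KO, a difference of 0.61 ± 0.16 (SE; limma adjusted p = 0.0344). That call was lost with any 1 of Wildtype libraries 2, 3 and 4 or LRP1 KO libraries 1, 2 and 3 left out, without the filter on low values (limma adjusted p = 0.0701) and with the replicate number as a block (0.0824). Relative to Psmb5, Psmb8 was at 5.02% to 7.09% in Wildtype and 8.19% to 13.3% in LRP1 KO. Psmb9 stood at 0.555% to 0.839% and 0.589% to 1.32% of Psmb6, and Psmb10 at 13.0% to 15.1% and 11.9% to 16.9% of Psmb7. Beside them, 12 of 16 tested interferon response genes were called higher in LRP1 KO, the markers of macrophages and leukocytes moved the same way as given above, and their part in the Psmb8 difference was not tested.

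Of the 17 tested 19S genes with a Psm symbol, 15 had an estimate above 0 and 2 below, with a median difference of 0.049, and 1 was called. The base holds the 6 ATPases Psmc1 to Psmc6, whose estimates were all above 0, from 0.0081 to 0.12, although 1 of the 6 was below 0 in each of 4 fits that left a library out. None of the 6 was called. Psmc6 was 83.5, 81.9, 88.8 and 84.3 FPKM in Wildtype and 92.2, 92.8, 91.8 and 91.8 FPKM in LRP1 KO. The LRP1 KO libraries had a coefficient of variation of only 0.487% and lay above all of Wildtype, with a difference of 0.12 ± 0.045 (SE; limma adjusted p = 0.0955). Psmd1, a scaffold subunit of the base, was 48.6, 45.9, 51.3 and 49.4 FPKM in Wildtype and 52.9, 51.5, 52.9 and 52.3 FPKM in LRP1 KO, a difference of 0.10 (limma adjusted p = 0.180). The other scaffold subunit, Psmd2, and the ubiquitin receptor Psmd4 had differences of 0.024 and -0.023.

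Psmd14 encodes the metalloprotease of the lid that cuts ubiquitin chains from the substrate, the step coupled to degradation. It was 58.8, 52.1, 54.9 and 59.4 FPKM in Wildtype and 68.3, 66.1, 68.4 and 64.6 FPKM in LRP1 KO. All 4 LRP1 KO libraries exceeded all 4 Wildtype libraries. The mean went from 56.3 ± 3.42 to 66.9 ± 1.83 FPKM (SD, n = 4), 119% of Wildtype, and the difference in log2(FPKM + 1) was 0.25 ± 0.056 (SE), with a 95% interval of 0.12 to 0.37 and a limma adjusted p of 0.0245. The exact two-sided permutation p was 0.0286, the smallest that 4 against 4 libraries can give. The call was lost when Wildtype library 2 or 3, or LRP1 KO library 1, 2 or 3, was left out, and with the replicate number as a block (limma adjusted p = 0.0524), with limma adjusted p-values from 0.0144 to 0.0762 over all alternatives and estimates from 0.21 to 0.27. In the fits that lost it, the share called over all genes was also lower, at 4.50% to 8.89% beside 13.6%. Without the fourth LRP1 KO library it was 0.26 (limma adjusted p = 0.0144). Psmd14 lies on chromosome 2 at 61711694 to 61800376 on the plus strand (GRCm38), and 1.61% of its transcript was shared with other annotated transcripts.

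The other 7 lid genes with a Psm symbol had 6 estimates above 0 and 1 below, the scaffold subunit Psmd3 at -0.041. Psmd8 was 236.8, 249.8, 232.4 and 228.9 FPKM in Wildtype and 277.5, 261.7, 262.6 and 236.1 FPKM in LRP1 KO. For Psmd8 the fourth LRP1 KO library fell within the Wildtype range, and the difference of 0.13 ± 0.061 (SE) had a limma adjusted p of 0.170, which ran from 0.0433 without that library to 0.383 over all alternatives. Psmd11 and Psmd12, lid scaffold subunits, had differences of 0.12 (limma adjusted p = 0.183) and 0.098 (limma adjusted p = 0.254). An antisense neighbour overlapped 18.9% of the Psmd11 transcript and 15.1% of that of the lid subunit Psmd13.

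**Figure D3:**
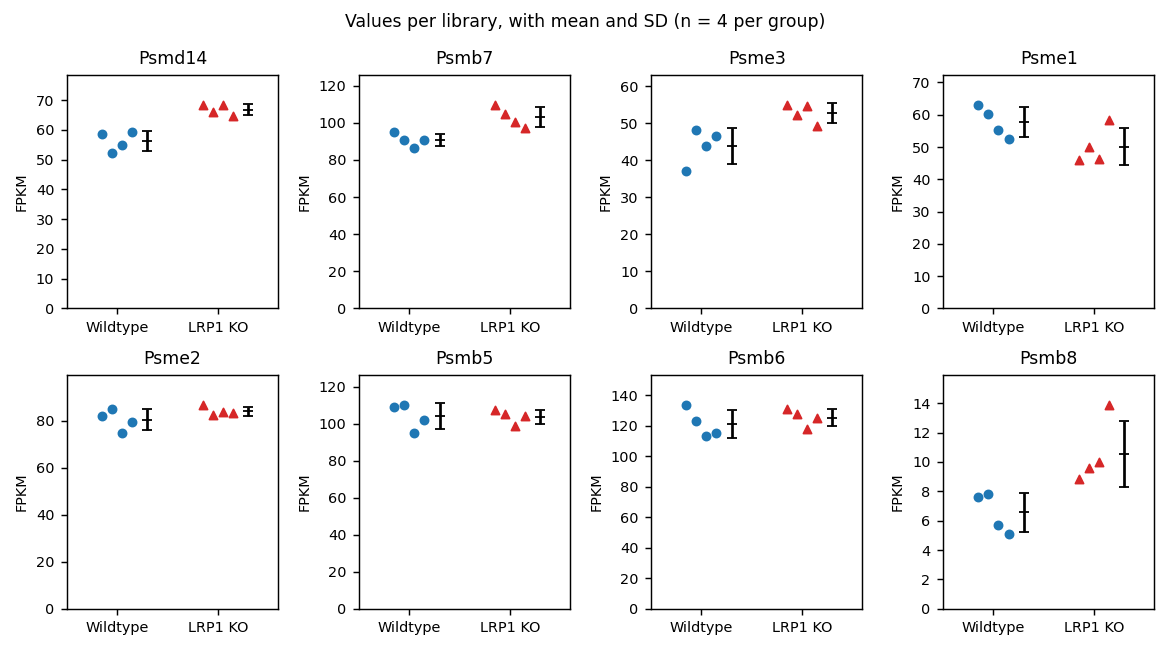
FPKM of 7 proteasome genes and the immunoproteasome gene Psmb8 in each library (points), with the mean and SD of 4 libraries a group beside them, on axes that start at 0. Psmd14, Psmb7, Psme3 and Psmb8 do not overlap between the groups, whereas Psme1, Psme2, Psmb5 and Psmb6 do.

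The estimates of the activators and the inhibitor spanned -0.20 to 0.26, the widest range of any role, and none was called. Psme3 encodes the nuclear activator PA28 gamma, which acts without ATP and ubiquitin. It was 37.2, 48.1, 43.8 and 46.6 FPKM in Wildtype and 54.9, 52.1, 54.6 and 49.2 FPKM in LRP1 KO. The groups did not overlap, though the lowest LRP1 KO library, at 49.2 FPKM, was close to the highest Wildtype library, at 48.1 FPKM. The mean was 43.9 ± 4.84 FPKM in Wildtype and 52.7 ± 2.65 FPKM in LRP1 KO (SD, n = 4), the largest estimate of any member at 0.26 ± 0.082 (SE), with a limma adjusted p of 0.0616. Over all alternatives the Psme3 estimate ran from 0.19 to 0.31 and the limma adjusted p from 0.0375, without the fourth LRP1 KO library, to 0.157. Psme1 and Psme2 encode the alpha and beta subunits of cytosolic PA28, an interferon-inducible activator that both subunits form together. Psme1 was 63.0, 60.1, 55.3 and 52.5 FPKM in Wildtype and 45.9, 50.1, 46.1 and 58.4 FPKM in LRP1 KO. LRP1 KO libraries 1, 2 and 3 lay under all Wildtype libraries, and the fourth lay within them. The mean was 57.7 ± 4.72 and 50.1 ± 5.86 FPKM (SD, n = 4), a difference of -0.20 ± 0.089 (SE; limma adjusted p = 0.145), with estimates from -0.28 to -0.16 and limma adjusted p-values from 0.0252, without the fourth LRP1 KO library, to 0.320 over all alternatives. Psme2 was 82.3, 85.2, 74.9 and 79.8 FPKM in Wildtype and 86.7, 82.4, 83.9 and 83.4 FPKM in LRP1 KO. Psme2 overlapped between groups, with a difference of 0.063 ± 0.053 (SE; limma adjusted p = 0.428), so the estimates of these partners had opposite signs, a contrast that was not tested. Of the Psme2 transcript, 59.3% was shared with the near-identical Psme2b, which makes its level uncertain. Psme4, which encodes PA200, was 14.8, 14.8, 16.4 and 16.0 FPKM in Wildtype and 15.7, 14.98, 15.6 and 14.9 FPKM in LRP1 KO, a difference of -0.017 (limma adjusted p = 0.858). Psmf1, the inhibitor PI31, had a difference of -0.0026 (limma adjusted p = 0.984).

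Promoters are shown for the called gene Psmd14, for Psme3 with the largest estimate, and for the PA28 partners Psme1 and Psme2, whose estimates had opposite signs. They are RefSeq windows of 300 bases on GRCm38.p6, from 250 bases before to 50 bases after the annotated start, read 5′ to 3′ on the strand of the gene. Capitals mark the motifs found on either strand among 4 searched, which were CCAAT (the NF-Y box, ATTGG on the other strand), TGANNNNGC (the core of the antioxidant response element), the core of the interferon-stimulated response element (TTTC, any 2 bases, TTTC) and TTCNNNGAA (the gamma-activated site). In Psmd14 the pair of CCAAT matches just after the start overlap each other. The windows were chr2:61711444-61711743 on the plus strand for Psmd14, chr11:101315963-101316262 on the plus strand for Psme3, chr14:55578244-55578543 on the plus strand for Psme1 and chr14:55591052-55591351 on the minus strand for Psme2. The RefSeq start of Psme1 lies 371 bases inside the gene as annotated by GENCODE, so its window is within that gene model. The table holds a further Psme2 window, with a start 92 bases inside the GENCODE gene beside 12 bases for the one shown, and the same motif lies before the start there.
Psmd14: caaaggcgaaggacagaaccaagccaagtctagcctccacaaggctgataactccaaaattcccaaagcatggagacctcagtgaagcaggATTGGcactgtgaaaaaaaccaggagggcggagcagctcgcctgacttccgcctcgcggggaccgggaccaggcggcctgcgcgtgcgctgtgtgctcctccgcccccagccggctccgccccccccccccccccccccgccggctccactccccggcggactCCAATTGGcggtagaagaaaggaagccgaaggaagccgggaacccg
Psme3: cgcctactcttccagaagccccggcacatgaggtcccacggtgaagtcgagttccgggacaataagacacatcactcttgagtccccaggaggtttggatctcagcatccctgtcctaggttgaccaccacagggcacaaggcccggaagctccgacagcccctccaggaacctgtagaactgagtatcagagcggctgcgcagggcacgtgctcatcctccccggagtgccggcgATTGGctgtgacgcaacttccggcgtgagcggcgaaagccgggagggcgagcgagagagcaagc
Psme1: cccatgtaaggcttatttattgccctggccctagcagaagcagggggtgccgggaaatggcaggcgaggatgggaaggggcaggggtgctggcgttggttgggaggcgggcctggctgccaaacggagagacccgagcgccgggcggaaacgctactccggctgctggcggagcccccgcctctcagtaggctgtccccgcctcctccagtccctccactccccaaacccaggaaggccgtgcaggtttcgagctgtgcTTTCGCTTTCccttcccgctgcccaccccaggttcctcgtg
Psme2: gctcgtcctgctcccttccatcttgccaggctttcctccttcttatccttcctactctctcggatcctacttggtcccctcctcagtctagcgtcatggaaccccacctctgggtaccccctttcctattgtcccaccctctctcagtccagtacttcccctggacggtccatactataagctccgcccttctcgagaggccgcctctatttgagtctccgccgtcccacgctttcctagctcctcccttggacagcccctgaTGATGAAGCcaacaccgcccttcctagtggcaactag

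Psmd14 and Psme3 had CCAAT in their windows, Psme1 had the interferon-stimulated core at 9 bases after the RefSeq start, and Psme2 had the antioxidant response core. Of the 45 proteasome genes 37 matched the promoter table, with 40 windows, and Psmb7 was not among them. CCAAT was in 32.5% of these windows and 37.4% of all 32851 windows. TGANNNNGC was in 57.5% and 41.3%, the interferon-stimulated core in 12.5% and 3.44%, and TTCNNNGAA in 5.0% and 8.30%. The interferon-stimulated core was found for Psmb3, Psmd4, Psmd9, Psme1 and Psmg4, of which none was called, with estimates of 0.086, -0.023, -0.025, -0.20 and -0.10. A match is a description of the letters and not of a bound site.

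Among the assembly chaperones with a Psm symbol, 6 of 7 estimates were below 0 and 1 above, with a median of -0.085 and none called. The estimate of Pomp, a chaperone outside the symbol rule, was above 0 at 0.14. The 4 Psmg genes, which encode chaperones of the alpha ring, were all below 0. Psmg3 was 18.9, 17.4, 14.2 and 15.3 FPKM in Wildtype and 13.0, 14.3, 14.0 and 15.1 FPKM in LRP1 KO. The high values were those of Wildtype libraries 1 and 2, and the groups overlapped, with means of 16.4 ± 2.11 and 14.1 ± 0.861 FPKM (SD, n = 4) and a difference of -0.20 ± 0.090 (SE; limma adjusted p = 0.150). Psmg4 was 13.9, 12.5, 10.4 and 10.6 FPKM in Wildtype and 10.5, 9.51, 9.47 and 14.8 FPKM in LRP1 KO. Its highest value of all was in the fourth LRP1 KO library, which gave that group a coefficient of variation of 22.7%, the largest of any tested member, and the difference was -0.10 ± 0.14 (SE; limma adjusted p = 0.647). Psmg1 and Psmg2, which form a dimer, had differences of -0.087 and -0.085. Of the chaperones of the 19S base, Psmd5 was at 0.14 (limma adjusted p = 0.252), Psmd9 at -0.025 and Psmd10 (gankyrin) at -0.058. Without Wildtype library 1 the median of the chaperones was -0.027, with 5 estimates below 0.

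Psma8 and Psmb11 replace Psma7 and Psmb5 in specialised proteasomes of testis and thymic epithelium, and both were too low to be tested. Psma8 was 0.174, 0.0581, 0.0575 and 0.167 FPKM in Wildtype and 0.233, 0.116, 0.166 and 0.136 FPKM in LRP1 KO, which overlapped (exact two-sided permutation p = 0.286). Psmb11 was listed at 0.00974 FPKM in the first Wildtype library and at 0 in the others, and LRP1 KO libraries 1, 2 and 3 had 0.000908, 0.00178 and 0.000780 FPKM, with the fourth at 0.

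The proteasome genes also deviated together from library to library. Wildtype library 1 had the highest level of its group for 31 of 43 genes, with a median deviation of 0.080 in log2(FPKM + 1) from the Wildtype mean, while over all tested genes its median deviation was 0.010. Wildtype library 3 had the lowest level for 23 genes, with a median of -0.057, and Wildtype libraries 2 and 4 stood at 0.0033 and -0.020. The LRP1 KO libraries stood at 0.057, 0.040, -0.011 and 0.033 against the same Wildtype mean. The deviations of Wildtype libraries 1 and 3 were larger in size than the median difference between genotypes of 0.030, which became 0.060 without Wildtype library 1 and 0.0092 without Wildtype library 3. Summed over the genes, FPKM was 3298 to 3588 in Wildtype and 3457 to 3630 in LRP1 KO, and the sums overlapped for the 20S core (1564 to 1746 and 1622 to 1740 FPKM) and for the 19S particle (1415 to 1493 and 1490 to 1552 FPKM). With the group means removed, the median Pearson r between pairs of genes over the 8 libraries was 0.42 for the 43 genes, 0.60 within the 20S core, 0.30 within the 19S particle and 0.51 among the chaperones, beside 0.001 for all pairs of tested genes. In the 20S core 95.6% of pairs had r above 0. These are descriptions over 8 libraries that every gene shares, and with group means kept the values were 0.36, 0.55, 0.40 and 0.55. The part of Wildtype libraries 1 and 3 in these correlations was not tested, and the pairs of all genes were not matched for level. The coefficient of variation was lower in LRP1 KO than in Wildtype for 33 of 43 genes (76.7%, beside 53.5% of all tested genes). Without Wildtype library 1 this held for 17 of 43 (39.5%, beside 46.1% of all tested genes), so that the count rests on that library.

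**Figure D4:**
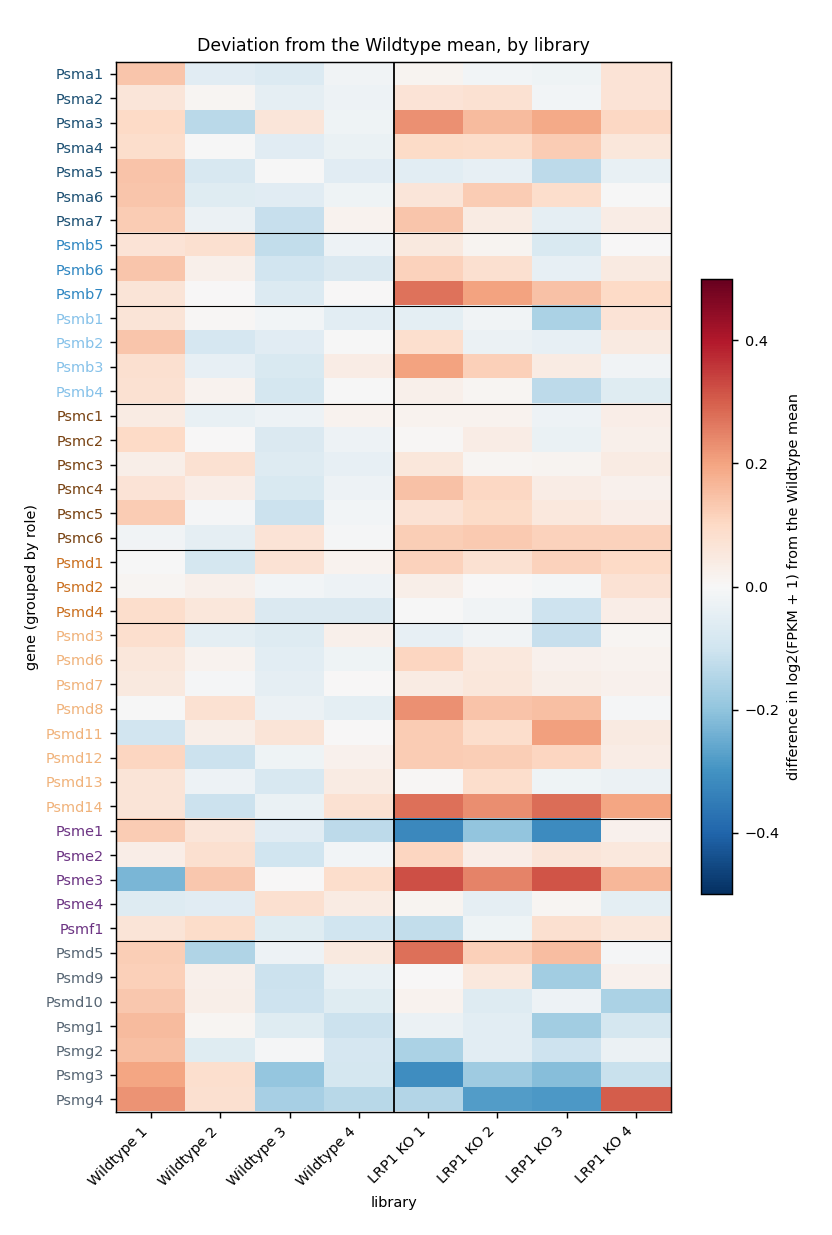
Deviation of each of 43 tested proteasome genes (rows, grouped by role) from its Wildtype mean in each of 8 libraries (columns), as a difference in log2(FPKM + 1) on a colour scale from -0.5 to 0.5. Wildtype library 1 is high for most genes (median 0.080) and Wildtype library 3 low (median -0.057), while Psmd14, Psmb7 and Psme3 are high in all 4 LRP1 KO libraries.

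Of 20 genes for proteasome partners outside the Psm symbols, 19 were in the table and tested, with 12 estimates above 0 and 7 below, a median of 0.097, 2 called higher and 1 lower. These 3 of 19 stand beside the 13.6% called over all genes tested. Txnl1, a thioredoxin-like protein bound to the 19S particle, was 36.9, 33.8, 35.7 and 36.9 FPKM in Wildtype and 44.96, 42.4, 42.96 and 41.9 FPKM in LRP1 KO, wholly above Wildtype. Its difference was 0.26 ± 0.051 (SE; limma adjusted p = 0.0153), and the call was lost without LRP1 KO library 1 (limma adjusted p = 0.0549). Zfand2a, a zinc finger protein induced by arsenite that binds the 19S particle, was 13.2, 14.4, 14.1 and 14.4 FPKM in Wildtype and 20.6, 16.6, 19.2 and 16.0 FPKM in LRP1 KO. Its difference was 0.34 ± 0.083 (SE; limma adjusted p = 0.0305), and the call held among the leave-one-out fits only without LRP1 KO library 4 (limma adjusted p = 0.00913), since leaving out any other library raised the adjusted p to between 0.0548 and 0.0915. Ubqln2, a shuttle that brings ubiquitinated proteins to the proteasome, was 43.8, 45.3, 45.05 and 39.3 FPKM in Wildtype and 28.5, 24.3, 28.9 and 40.6 FPKM in LRP1 KO. The fourth LRP1 KO library lay within Wildtype, and the difference was -0.51 ± 0.13 (SE; limma adjusted p = 0.0362), or -0.65 without that library (limma adjusted p = 0.00105). Leaving out any other library took the Ubqln2 call away, with limma adjusted p-values from 0.0527 to 0.0986. Both calls were also lost without the filter on low values (limma adjusted p = 0.0509 for Zfand2a and 0.0708 for Ubqln2) and with the replicate number as a block (limma adjusted p = 0.0665 and 0.0726).

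The other 16 tested partner genes were not called. Their estimates ran from -0.22 for Ddi2, a protease that activates Nfe2l1, to 0.21 for Uchl5, a deubiquitinase bound to the 19S particle (limma adjusted p = 0.0694 and 0.0942), with adjusted p-values over all alternatives from 0.0262 to 0.186 and from 0.0240 to 0.236, lowest for both without the fourth LRP1 KO library. Pomp, the chaperone that completes the 20S core, was 115.5 ± 8.60 FPKM in Wildtype and 127 ± 5.50 FPKM in LRP1 KO (SD, n = 4; difference 0.14, limma adjusted p = 0.163). The 19S subunits that the symbol rule leaves out both had estimates below 0, the ubiquitin receptor Adrm1 at -0.090 (limma adjusted p = 0.366) and the lid subunit Sem1, listed as Shfm1, at -0.13 (limma adjusted p = 0.185). Nfe2l1, the transcription factor that raises proteasome genes when proteasome activity is short, was 87.5 ± 10.1 FPKM in Wildtype and 95.4 ± 6.28 FPKM in LRP1 KO (SD, n = 4; difference 0.13, limma adjusted p = 0.318). Of 10 genes for ubiquitin itself, its activating enzymes and the segregase that feeds the proteasome, 5 had an estimate above 0 and 5 below and none was called. The lowest adjusted p among them was that of the segregase Vcp, at -0.15 with groups that did not overlap (limma adjusted p = 0.0688, from 0.0429 without the fourth LRP1 KO library to 0.184 over all alternatives).

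The level of some members is uncertain because they share sequence with other genes. Stretches of 50 bases of the longest coding transcript recurred on the same strand in transcripts of other genes for 21 of 45 members, over more than 10% of the transcript for 11 and over more than 50% for 4. These 4 were Psme2, Psmb5 (57.1%), Psmb3 (55.8%) and Psma5 (54.5%), and the antisense overlaps of Psmb7, Psmd11 and Psmd13 given above come on top of these. How the counting placed such reads is not given in the sources used here.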

How the data were processed

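The 8 libraries were prepared from RNA with TruSeq chemistry and sequenced. The deposited table holds FPKM values per gene, which the authors had made comparable between libraries, since sorted values differed by a median of 0.576%. Column sums and values were examined, because the header names no unit. The submitters' processing notes name TopHat2, Cufflinks and mm10, whereas the methods name STAR, featureCounts and edgeR. No counts were used, and depth is unknown. Differences were tested with limma 3.58.1 (R 4.3.3, variance trend) on log2(FPKM + 1), which understates changes of low genes, for 11389 genes at 1 or more in at least 4 libraries, with Benjamini-Hochberg adjustment over all of them. The fit was tested on simulated data with 200 changed genes. Exact permutation tests enumerated 70 divisions and cannot give a p under 0.0286. The members, lists and roles were chosen with earlier results of these data known. Values in every library are given for the catalytic subunits, activators, called members, the 3 largest rises and falls, untested members and members with an outlying library. Psma3, Psmc6, Psmd1, Psmd8, Ddi2, Uchl5, Vcp, Scgb1a1 and Eng were added after their values were seen. Alternatives were another pseudocount (0.1), other filters, rescaled libraries, other variance models, a replicate block and leaving out each library.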

Additional observations from a re-analysis of the deposited data

Results flagged for a closer look

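In 4 of 118 groups of 4 values examined, 1 library stood apart by Dixon's criterion (its gap to the next library over the range of the group), which chance alone gives in about 1 of 20 groups. Psma2 was 143.0 FPKM in LRP1 KO library 3, with 0.910 of the group's range between it and the next library. Psma5 was 61.5 FPKM in the same library, with a gap of 0.846 of the range. Psmb11 was 0.00974 FPKM in Wildtype library 1 and listed at 0 in the other Wildtype libraries. The immunoproteasome gene Psmb9 was 0.639 FPKM in Wildtype library 4, with a gap of 0.848 of the range.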

How the results depend on the processing

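The number of proteasome genes called higher was 1, and it was 2 with rescaled libraries (Psmb7 joined Psmd14) and 0 with the replicate block. Leaving out 1 library gave 0 to 4 called higher and 0 to 1 called lower. Without LRP1 KO library 4 these were Psme3, Psmb7, Psmd14 and Psmd8, and Psme1. Over all genes, 714 were called higher and 833 lower. The block gave 493 and 520, the fit without the filter on low values 597 and 566, and leaving out 1 library 280 to 1436 higher and 232 to 1585 lower. No alternative called a proteasome gene with a 2-fold change, and the median difference stayed between 0.0092 and 0.060. Replicate numbers were shared between groups. Deviations of same-numbered libraries correlated at 0.158, 0.141, 0.340 and -0.312, and 2 of 4 Wildtype libraries matched best the LRP1 KO library of their number. With 4 libraries a group, these mixed values cannot settle whether the numbers pair the libraries. With the replicate block the adjusted p of Psmd14 was 0.0524, that of Psmb8 0.0824, that of Zfand2a 0.0665 and that of Ubqln2 0.0726 (limma). Signs changed only for genes near 0. With rescaled libraries Psmb5 was at 0.014 and Psmf1 at 0.013. With 1 library left out, estimates ran from -0.035 to 0.038 for Psmf1, -0.044 to 0.024 for Psmb5, -0.0097 to 0.060 for Psma1, -0.017 to 0.041 for Psmc2, -0.012 to 0.062 for Psmb2, -0.048 to 0.0062 for Psmd4, -0.061 to 0.025 for Psmd9, -0.016 to 0.032 for Psmd13, -0.00038 to 0.025 for Psmc1, -0.038 to 0.0092 for Psme4 and -0.074 to 0.0010 for Psmb1. The cause of these changes was not tested. With no depth in the table, counting error is unknown, and a gene that missed the threshold is not shown to be equal between groups.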
